A study of Mus musculus with 6 samples.

Results

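The 10 genes followed here act when a differentiating airway cell makes the many centrioles that anchor its cilia and were read in all cell clusters of mouse tracheal cultures: *Deup1*, *Plk4*, *Stil*, *Sass6*, *Cenpj*, *Cep152*, *Cep63*, *Ccdc78*, *Hyls1* and *Ccp110*. They were chosen by symbol for their known role, with earlier results of these data known, and all 10 of the 10 are among the 20483 genes of the count table. The cells came from primary tracheal epithelium of C57BL/6 mice, 12 weeks old, grown at air-liquid interface (ALI), where the surface is exposed to air and basal cells give rise to secretory and multiciliated cells. The 3 *WT/WT* mice carried no *Dnaaf5* mutation, and the 3 *MIS/MIS* mice were homozygous for a *Dnaaf5* missense allele that replaces a cysteine by a phenylalanine, made in the same strain by genome editing together with a nearby synonymous change. *Dnaaf5* encodes a cytoplasmic assembly factor of dynein motors, and the allele is present in every cell of these mice. No agent was given to either group.

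A cycling cell copies each of its centrioles a single time. There the kinase *Plk4*, brought to the parent centriole by *Cep152* and its partner *Cep63*, acts with *Stil* and the cartwheel protein *Sass6* to start the new centriole, and *Cenpj* lengthens it. A cell that becomes multiciliated has left the cell cycle but turns the same set of proteins on again, and makes most of its new centrioles on deuterosomes, ring-like bodies whose scaffold is *Deup1*, a paralog of *Cep63*. *Ccdc78* has been placed at deuterosomes, *Ccp110* caps the growing end of a centriole and has to leave before a cilium forms, and *Hyls1* is a centriole protein needed for cilia.

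The values are counts of unique molecular identifiers (UMIs), the tags that mark single transcript molecules in droplet single-cell RNA-Seq. They are given as counts per 1000000 UMIs (CPM) after summing all cells of a cluster in a mouse, as mean ± SD over mice with at least 10 cells in that cluster. The authors had assigned each of the 23871 cells to 1 of 16 clusters, and these clusters were used as deposited. Their Multiciliated2 cluster held 857 cells, between 55 and 342 per mouse, and their cluster of cycling basal cells, Basal6, held 816, between 55 and 224 per mouse. The names matched most of the markers. In Multiciliated2 the summed level of 6 early multiciliated markers lay between 958 and 1347 CPM in the 6 mice, against 8.61 to 18.6 CPM in Basal6. Over all cells of a cluster, *Mcidas*, *Ccno*, *Cdc20b*, *Foxn4* and *Myb* were highest in Multiciliated2. *Gmnc*, the remaining early marker, was not, at 6.18 CPM there, 31.0 in Multiciliated1, 11.2 in Multiciliated3, 13.1 in Secretory1 and 13.4 in Secretory2. *Mki67*, a marker of cycling cells, stood at 8.22 ± 1.64 CPM in Multiciliated2 and at 231.6 ± 44.1 CPM in Basal6, whereas *Cdk1* stood at 286.3 ± 27.0 and 253.9 ± 41.4 CPM and *Top2a* at 176.6 ± 31.3 and 390.2 ± 69.7 CPM. The 6 mature multiciliated markers did not share 1 order. Over all cells of a cluster, *Foxj1* stood at 715.6 CPM in Multiciliated2, 344.0 in Multiciliated3, 194.7 in Multiciliated4 and 72.5 in Multiciliated1, and *Tppp3* at 495.5, 2251, 2866 and 706.3 CPM. *Dnah5*, *Tekt1*, *Dynlrb2* and *Ccdc39* were higher in Multiciliated3 than in Multiciliated2, and higher in Multiciliated2 than in Multiciliated1. Median UMIs per cell in Multiciliated2 ran from 33280 in *MIS/MIS* mouse MT1383 to 57716 in *WT/WT* mouse 1, and in Basal6 from 23985 to 43934. The secretory markers, 4 genes, summed to 2511 to 7180 CPM in Multiciliated2 and to 2385 to 6621 CPM in Basal6, and the part of these transcripts in the results was not tested. *Dnaaf5* itself stood between 28.0 and 36.9 CPM in Multiciliated2 of *WT/WT* mice and between 29.6 and 42.0 CPM in that of *MIS/MIS* mice, and since the allele is a missense allele this level does not check the labels.

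In the GENCODE M21 annotation of GRCm38 (mm10), *Deup1* lies on chromosome 9 from 15559864 to 15627933, *Cep63* on chromosome 9 from 102584588 to 102626534, *Cep152* on chromosome 2 from 125563088 to 125625113 and *Hyls1* on chromosome 9 from 35560820 to 35570398, all on the minus strand. *Cenpj* is also on the minus strand, on chromosome 14 from 56526761 to 56575425. On the plus strand are *Plk4* (chromosome 3, 40800019 to 40816883), *Stil* (chromosome 4, 115000159 to 115043196), *Sass6* (chromosome 3, 116594982 to 116631004), *Ccdc78* (chromosome 17, 25786580 to 25790513) and *Ccp110* (chromosome 7, 118712552 to 118737024). Plk4, Stil, Cep152 and Ccp110 overlap 0 annotated genes. The other 6 overlap 1 or 2 genes on the opposite strand, among them Fam173a at the 3′ end of Ccdc78 and Pus3 at that of Hyls1, and whether reads were counted by strand is not given in the sources used here.

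The bases before the starts of 4 of the genes are shown because they hold a match to 1 of 2 motifs that were searched. They do not stand for all 10 genes: of the 9 genes highest in Multiciliated2, *Sass6*, *Cenpj*, *Cep63*, *Hyls1* and *Ccp110* had no TTCCCGC in their windows, and *Deup1* had both motifs. They are RefSeq sequences of GRCm38.p6, written 5′ to 3′ along the gene, and capitals mark the letters TTCCCGC, an E2F site, or GTTGCCA, a half-site of RFX factors, on either strand. E2F factors drive cell cycle genes, and RFX factors drive cilium genes.
Deup1, chr9:15627934-15628096, minus strand: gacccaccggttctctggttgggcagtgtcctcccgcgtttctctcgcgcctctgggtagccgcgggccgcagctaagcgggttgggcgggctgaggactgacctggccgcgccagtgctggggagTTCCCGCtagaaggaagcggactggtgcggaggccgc
Plk4, chr3:40799701-40799950, plus strand: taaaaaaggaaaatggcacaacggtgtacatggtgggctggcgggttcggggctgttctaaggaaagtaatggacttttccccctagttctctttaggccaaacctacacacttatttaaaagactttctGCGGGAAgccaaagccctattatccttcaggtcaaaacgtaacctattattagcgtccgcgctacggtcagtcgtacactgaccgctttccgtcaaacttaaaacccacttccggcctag
Cep152, chr2:125625114-125625363, minus strand: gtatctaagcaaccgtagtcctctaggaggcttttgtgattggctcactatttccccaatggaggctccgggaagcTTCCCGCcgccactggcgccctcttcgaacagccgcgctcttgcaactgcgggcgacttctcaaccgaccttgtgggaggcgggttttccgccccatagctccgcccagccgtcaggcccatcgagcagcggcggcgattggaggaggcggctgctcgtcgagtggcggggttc
Ccdc78, chr17:25786330-25786579, plus strand: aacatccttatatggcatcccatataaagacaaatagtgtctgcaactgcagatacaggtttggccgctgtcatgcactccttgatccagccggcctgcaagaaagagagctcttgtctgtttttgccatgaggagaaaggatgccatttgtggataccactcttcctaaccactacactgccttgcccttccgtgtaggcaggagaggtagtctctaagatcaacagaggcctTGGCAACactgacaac
The Deup1 stretch stops at the outermost start of the gene in GENCODE. Its GTTGCCA match, at -80 bases from the RefSeq start, lies past that end and is not shown. The GTTGCCA match of Ccp110, 40 bases after the RefSeq start, is not shown either. A further match in *Stil* lies 43 bases after the RefSeq start, in this stretch of 30 bases:
Stil, chr4:115000138-115000167, plus strand: ccagcgagcgcttgccgcctcggTTCCCGC

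All 10 genes had a RefSeq window of 300 bases, from 250 before to 50 after the start, and Deup1 had a second one, which made 11 windows. TTCCCGC was found on either strand in windows of 4 genes, Deup1, Plk4, Stil and Cep152, and in 4.60% of all 32851 windows. GTTGCCA was found in windows of 3 genes, Ccdc78, Ccp110 and Deup1, and in 4.38% of all windows. A second form of the E2F site, TTGGCGC, was found in 0 of the 10 genes and in 2.45% of all windows. The letters CCAAT, the CCAAT box, were in 4 genes (37.4% of all windows), and TTTGAA, the cell cycle homology element, was in 1 gene, Sass6 (17.9%). No 2 matches in these 11 windows overlapped (0 overlapping pairs). A match is a run of letters, not a site shown to be bound.

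Among the 10 clusters with at least 10 cells in all 6 mice, 9 of the 10 genes were highest in Multiciliated2 in every mouse. Of the 14567 genes with at least 1 CPM in such a cluster, 9.62% were. The exception among the 10 genes was *Ccdc78*. Multiciliated4, Basal4, Basal5, Basal8, the neuroendocrine cells and the ionocytes were left out of this count. Because the authors made the clusters from the same cells and genes, differences between clusters are given as descriptions, with no test. The 10 genes were also chosen with earlier results of these data known, so this count and those below are descriptions too.

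*Deup1*, the deuterosome scaffold, had its highest level in Multiciliated2, a much lower one in the other multiciliated clusters and almost none elsewhere. Its level there was 348, 319 and 397 CPM in *WT/WT* mice 1, 2 and 3, and 317, 346 and 421 CPM in *MIS/MIS* mice MT1301, MT1306 and MT1383. The 2 genotypes overlapped, and the lowest mouse stood far above any other cluster. Multiciliated3 followed at 13.9 ± 1.32 CPM (n = 6), Multiciliated4 at 11.5 ± 2.22 (n = 5) and Multiciliated1 at 2.65 ± 0.694 (n = 6), of which the first 2 overlapped. In Basal6 *Deup1* stood at 0.422 ± 0.189 CPM, with 11 UMIs in all, and the means of the other basal and secretory clusters lay between 0.265 and 0.838 CPM. A *Deup1* UMI was seen in 88.1% of Multiciliated2 cells (755 of 857, Wilson 95% interval 85.8% to 90.1%) and in 1.35% of Basal6 cells (0.754% to 2.40%), with 27.4% in Multiciliated3. Median UMIs per cell were 38781 in Multiciliated2 and 32916 in Basal6. In the other basal and secretory clusters the shares were 0.980% to 2.18%, so the share in Basal6 lay within the range of clusters that are neither cycling nor multiciliated, and is read as background and not as expression. These intervals cover counting error only.

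*Plk4*, *Stil*, *Cep152* and *Hyls1* shared another order, in which the cycling cells came second. *Plk4*, the kinase that starts centriole formation, stood at 261, 211 and 223 CPM in Multiciliated2 of the *WT/WT* mice and at 194, 239 and 240 CPM in that of the *MIS/MIS* mice, with overlap between genotypes. In Basal6 the same mice had 43.0, 30.4 and 45.1 CPM and 41.9, 40.5 and 50.5 CPM, so the highest Basal6 value lay below the lowest Multiciliated2 value. In Multiciliated3 *Plk4* was at 5.21 ± 1.82 CPM. A *Plk4* UMI was present in 89.4% of Multiciliated2 cells and 59.2% of Basal6 cells.

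*Stil*, which binds Plk4, stood at 56.1, 47.3 and 71.8 CPM in Multiciliated2 of the *WT/WT* mice and at 49.0, 58.0 and 79.3 CPM in that of the *MIS/MIS* mice. Its mean was 7.55 ± 1.79 CPM in Basal6 and 2.23 ± 0.437 CPM in Multiciliated3. *Cep152*, which recruits Plk4 to the parent centriole, stood at 44.5, 35.03 and 55.6 CPM and at 40.1, 46.1 and 48.4 CPM in the same order of mice. It was at 4.73 ± 0.694 CPM in Basal6 and at 2.02 ± 0.341 CPM in Multiciliated3. *Stil* and *Cep152* had 0 UMIs in the 146 cells of Multiciliated4, which at that depth allows up to 1.84 CPM.

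*Hyls1* stood at 231, 161 and 229 CPM in Multiciliated2 of the *WT/WT* mice and at 171, 172 and 222 CPM in that of the *MIS/MIS* mice, and a UMI was seen in 88.4% of the cells. It stood at 7.07 ± 1.30 CPM in Basal6. In Multiciliated3 it was at 2.03 ± 0.518 CPM, which overlapped with its level in Basal1 (2.19 ± 0.358). The level of *Hyls1* in Multiciliated3, a cluster with mature cilium genes, was thus within the range of a basal cluster.

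In *Ccp110*, *Cep63*, *Sass6* and *Cenpj* another multiciliated cluster came second. These orders leave out the ionocytes, rare salt-transporting cells with a single mouse of at least 10 cells. Their 28 cells held *Cenpj* at 46.1 CPM, above every cluster but Multiciliated2. *Ccp110*, the cap protein, stood at 108, 128 and 136 CPM in Multiciliated2 of the *WT/WT* mice and at 136, 120 and 153 CPM in that of the *MIS/MIS* mice. Multiciliated3 came close, at 96.7 ± 5.91 CPM, and its highest mouse (106.3 CPM) was just under the lowest Multiciliated2 value. Multiciliated4 had 38.9 ± 16.1 CPM and Basal6 12.5 ± 1.85 CPM. *Cep63* stood at 70.6, 83.5 and 92.2 CPM and at 75.4, 83.3 and 114.7 CPM in Multiciliated2 in the same order of mice. It was at 36.3 ± 14.4 CPM in Multiciliated4, 29.4 ± 2.20 in Multiciliated3, 17.5 ± 2.03 in Multiciliated1 and 16.3 ± 0.963 in Basal6. The means of the other basal and secretory clusters ran from 11.6 to 16.0 CPM, and 29.3% to 40.0% of their cells had a UMI. No background share was measured for *Cep63*, so these values alone do not show that each of these cell types expresses it.

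*Sass6*, the cartwheel protein, stood at 52.5, 51.7 and 65.5 CPM in Multiciliated2 of the *WT/WT* mice and at 53.0, 61.6 and 74.7 CPM in that of the *MIS/MIS* mice. Multiciliated4 (22.0 ± 8.78 CPM), Multiciliated3 (21.8 ± 1.81) and Basal6 (19.0 ± 2.73) overlapped each other. *Cenpj*, which lengthens centrioles, stood at 49.6, 53.9 and 55.0 CPM and at 48.7, 60.2 and 61.9 CPM. It was at 10.7 ± 1.62 CPM in Multiciliated3, 10.4 ± 2.33 in the neuroendocrine cells (n = 3), 8.84 ± 2.45 in Basal6 and 7.55 ± 1.17 in Multiciliated1, and neighbours in this order overlapped.

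*Ccdc78* went the other way between the early and the mature clusters. In Multiciliated2 it stood at 32.2, 47.3 and 48.9 CPM in the *WT/WT* mice and at 44.4, 57.3 and 71.7 CPM in the *MIS/MIS* mice. In Multiciliated3 its mean was 131.4 ± 16.9 CPM with a lowest mouse of 113.6 CPM, above all of these, and in Multiciliated4 119.8 ± 34.1 CPM. The ranges of Multiciliated3 and Multiciliated4 overlapped, as did those of Multiciliated4 and Multiciliated2, but within mice *Ccdc78* was lower in Multiciliated2 than in Multiciliated4 in 5 of 5 (log2 ratio -1.21 ± 0.42). A *Ccdc78* UMI was found in 49.0% of Multiciliated2 cells and 90.1% of Multiciliated3 cells, although the latter had fewer UMIs per cell. Its log2 ratio of Multiciliated2 to Multiciliated3 was -1.40 ± 0.32, and it was lower in Multiciliated2 in 6 of 6 mice, as were 45.1% of all genes with at least 1 CPM in either cluster.

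**Figure D1:**
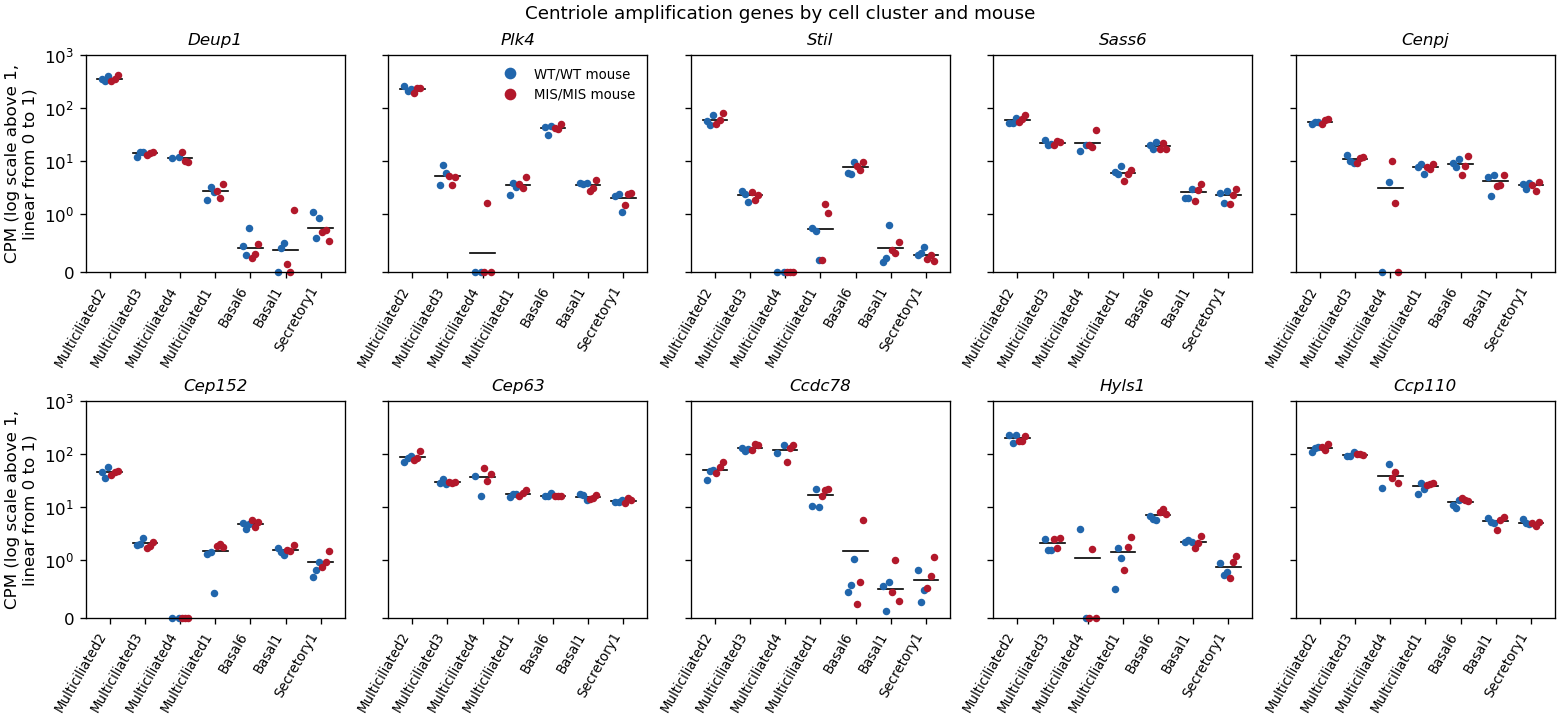
CPM of each of the 10 genes (vertical axis, log scale above 1 and linear below) in 7 clusters, with 1 point per mouse with at least 10 cells and a line at the mean. All genes but *Ccdc78* are highest in Multiciliated2, *Plk4*, *Stil*, *Cep152* and *Hyls1* come second in Basal6, and *Ccdc78* is highest in Multiciliated3 and Multiciliated4.

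Counted per cell, a Multiciliated2 cell had UMIs of 7.80 ± 0.33 of the 10 genes (mean of 6 mice), a Multiciliated3 cell of 3.62 ± 0.30, a Basal6 cell of 2.55 ± 0.38 a Multiciliated1 cell of 2.03 ± 0.19 and a Multiciliated4 cell of 1.70 ± 0.13 (5 mice). Other basal and secretory clusters had between 0.724 and 0.973 of them. At least 8 of the 10 were found in 545 of the 857 Multiciliated2 cells, in 5 of 2712 Multiciliated3 cells, in 1 of 816 Basal6 cells and in 1 of 1108 Multiciliated1 cells. Depth moves such counts. With each cell thinned to 5000 UMIs the means were 3.56 ± 0.30, 1.25 ± 0.07, 0.494 ± 0.090, 0.398 ± 0.082 and 0.937 ± 0.152 for the same clusters, so that Multiciliated4 then stood above Basal6 and Multiciliated1.

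**Figure D2:**
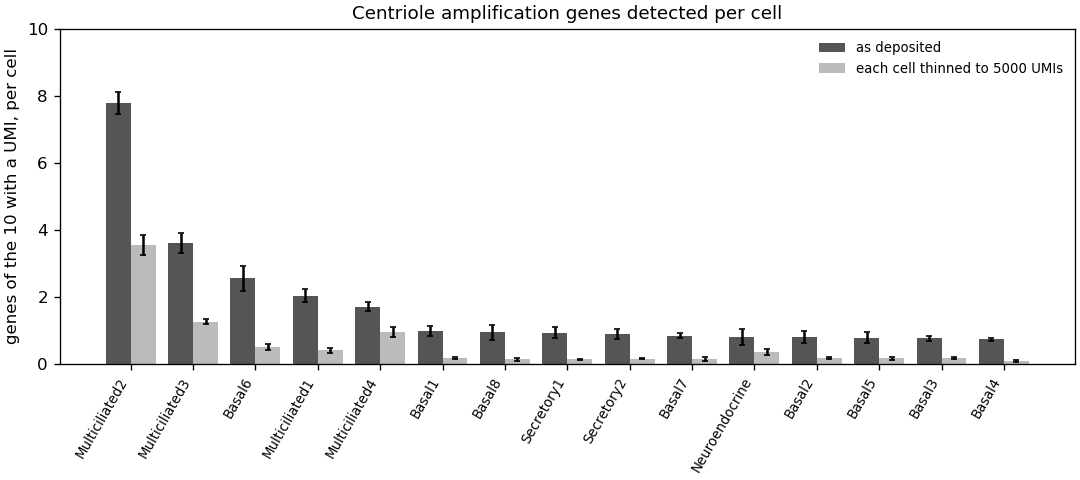
Mean number of the 10 genes with at least 1 UMI in a cell (vertical axis) for the clusters with 2 or more mice of at least 10 cells, as deposited (dark bars) and after thinning each cell to 5000 UMIs (light bars), with the SD over mice. Multiciliated2 cells had 7.80 of the 10 genes as deposited and 3.56 after thinning, more than any other cluster shown.

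The same proteins make centrioles in cycling cells, so Multiciliated2 was set against Basal6 within each mouse. All 10 genes were higher in Multiciliated2 in 6 of 6 mice, where 35.1% of the 13290 genes with at least 1 CPM in either cluster were. On the scale of log2(CPM + 1), the median of their mean differences was 2.92, against 0.02 over those 13290 genes. *Deup1* had the largest difference, 7.98 ± 0.12 (253-fold on this scale), with the 6 mice between 7.82 and 8.16. *Ccdc78* (4.65 ± 0.65) and *Hyls1* (4.62 ± 0.39) followed and overlapped. *Ccp110* (3.29 ± 0.21), *Cep152* (3.00 ± 0.23) and *Stil* (2.84 ± 0.21) were 7 to 10 times higher, and *Cenpj* (2.54 ± 0.31), *Plk4* (2.42 ± 0.23) and *Cep63* (2.33 ± 0.24) about 5 to 6 times. *Sass6* differed least, by 1.61 ± 0.25 (3.04-fold). A pseudocount of 1 CPM holds down the ratio of *Deup1* most, since it lay below 1 CPM in Basal6.

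*Ccdc78* in Basal6 rested on 1 mouse. MT1383 had 5.72 CPM, where the other 5 mice had 0.246 to 1.01 CPM. In the same cells the 6 mature multiciliated markers summed to 85.1 CPM, against 9.71 to 17.1 CPM in the other mice. The early multiciliated markers did not set that mouse apart, at 16.5 CPM against 8.61 to 18.6 CPM. Without MT1383 the log2 ratio of *Ccdc78* was 4.89 in place of 4.65.

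**Figure D3:**
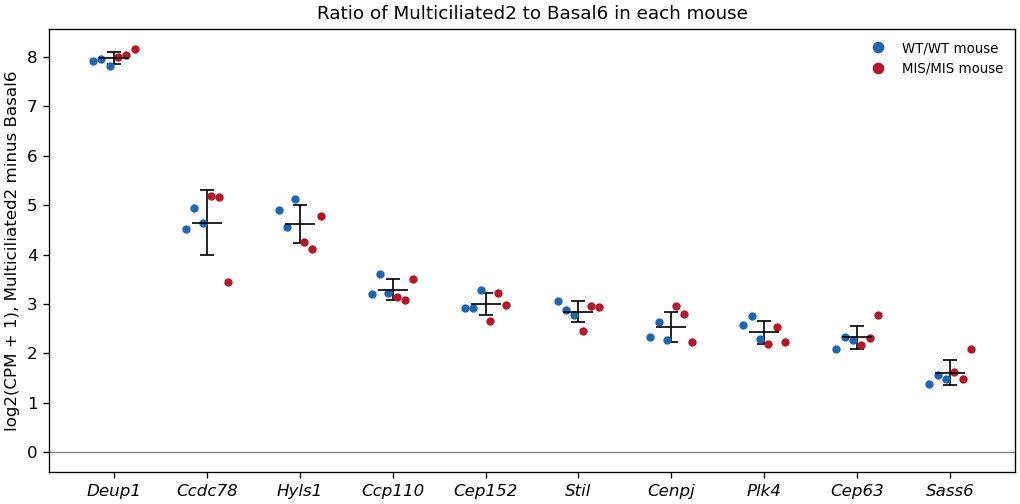
Difference in log2(CPM + 1) between Multiciliated2 and Basal6 (vertical axis) for each of the 10 genes, 1 point per mouse, with the mean and SD over the 6 mice. Every point lies above 0, from 1.39 for *Sass6* in *WT/WT* mouse 1 to 8.16 for *Deup1* in *MIS/MIS* mouse MT1383, and *Ccdc78* has its lowest point in MT1383.

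Against the mature cells of Multiciliated3, 9 of the 10 genes were higher in Multiciliated2 in every mouse, where 26.1% of 13595 genes were. *Hyls1* differed most (6.04 ± 0.28), followed by *Plk4* (5.25 ± 0.51), *Deup1* (4.59 ± 0.17), *Stil* (4.23 ± 0.43) and *Cep152* (3.92 ± 0.15). *Cenpj* (2.26 ± 0.21), *Cep63* (1.51 ± 0.25) and *Sass6* (1.41 ± 0.22) differed less, and *Ccp110* by 0.42 ± 0.14. Thus the order of the genes was not the one found against Basal6: *Plk4* was the eighth of 10 there and the second here. Against Multiciliated1 all 10 genes were higher in Multiciliated2 in every mouse, where 35.6% of 13327 genes were, from 1.56 ± 0.35 for *Ccdc78* to 6.64 ± 0.28 for *Deup1*.

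Other genes of centrioles, a list of 55 with all 55 in the table, were read in the same way. In 46 of the 55 the level was higher in Multiciliated2 than in Basal6 in every mouse, in 3 it was lower, and the median log2 ratio was 1.47, where 35.1% of all genes were higher and their median was 0.02. *Mdm1*, which binds centriolar microtubules (4.38 ± 0.25, from 7.28 to 171.1 CPM), and *Cep83*, a distal appendage protein (4.10 ± 0.28, from 20.4 to 361.5 CPM), had the largest ratios. *Cep250*, a linker between parent centrioles (-1.46 ± 0.44, 13.5 CPM in Basal6 and 4.402 in Multiciliated2), and *Wdr62*, a spindle pole protein (-0.53 ± 0.36, 7.78 and 5.02 CPM), had the smallest. Against Multiciliated3, 36 of the 55 were higher in every mouse and 10 lower (26.1% and 45.1% of all genes), and 31 of the 55 were highest in Multiciliated2 among all clusters in every mouse (9.62% of all genes).

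Of 13 regulators of the multiciliated programme, 10 were higher in Multiciliated2 than in Basal6 in every mouse (35.1% of all genes). *Mcidas*, a coregulator of the programme, stood at 147.2 ± 26.6 and 0.415 ± 0.234 CPM, and *Ccno*, needed for deuterosomes, at 451.3 ± 56.7 and 1.90 ± 0.539 CPM. *E2f4* (33.0 ± 2.05 and 30.5 ± 3.13 CPM) and *Tfdp1* (76.1 ± 13.8 and 75.0 ± 8.47 CPM), which bind E2F sites as partners, did not separate the clusters in every mouse, and neither did *Gmnc* (5.52 ± 1.92 and 3.62 ± 1.75 CPM).

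The pattern over 15 clusters with at least 50 cells was compared among 12917 genes by Pearson correlation of mean log2(CPM + 1). The points share libraries, and the high value of Multiciliated2 carries much of each correlation, so these are descriptions. The 5 genes most like *Deup1* were *A930003A15Rik* (r = 0.990), *Noxa1* (0.988), *4921504E06Rik* (0.988), *Gm44658* (0.981) and *Gm5431* (0.974), all at 5.03 to 17.1 CPM in Multiciliated2 and at most 0.063 CPM in Basal6. Those most like *Plk4* were *Ccdc18* (0.982), *Dna2* (0.975), *Stil* (0.975), *Ybx2* (0.971) and *E2f7* (0.971), all with 6.14 to 14.9 CPM in Basal6. Among the 10 genes, *Plk4* and *Stil* had r = 0.975, *Deup1* and *Cep63* 0.962, *Ccdc78* and *Ccp110* 0.906, and *Plk4* and *Ccdc78* 0.263.

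Multiciliated2 was not uniform in these genes. Its cells were split, after the values had been seen, into 420 cells with a *Ccdc78* UMI and 437 without, between 16 and 191 and between 28 and 151 per mouse. The cells with the UMI were somewhat deeper, with median UMIs per mouse of 34960 to 58485 against 30141 to 54904. Of the other 9 genes, 8 were higher in the cells with *Ccdc78* in 6 of 6 mice, where 29.7% of 13212 genes were, and the median log2 ratio was 1.01 against 0.10 over those genes. *Cep63* was at 143.8 ± 12.6 CPM with and 36.6 ± 11.7 CPM without the UMI, *Ccp110* at 191.2 ± 13.6 and 76.1 ± 8.48 CPM, *Sass6* at 84.1 ± 6.51 and 37.5 ± 6.95 CPM, and *Deup1* at 497.4 ± 37.1 and 232.2 ± 42.6 CPM.

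*Plk4* differed less, at 260.9 ± 22.1 and 198.9 ± 33.3 CPM, and *Cep152* was higher in 4 of 6 mice only, at 47.7 ± 9.62 and 43.3 ± 7.57 CPM. *Stil* (79.8 ± 8.99 and 43.3 ± 15.5 CPM), *Cenpj* (75.0 ± 3.62 and 37.5 ± 8.02) and *Hyls1* (259.7 ± 54.3 and 147.7 ± 34.6) lay between. *Mcidas* was lower in the cells with *Ccdc78* in 6 of 6 mice, at 131.6 ± 24.1 against 162.7 ± 30.7 CPM. The other early markers read in this split went the other way in most mice: *Ccno* was at 508.2 ± 106.6 against 413.1 ± 56.5 CPM and *Myb* at 540.6 ± 80.6 against 506.6 ± 103.1 CPM, each higher with *Ccdc78* in 5 of 6 mice. *Dnah5*, an outer dynein arm motor, was at 216.8 ± 38.1 against 44.4 ± 11.1 CPM, and *Top2a*, a DNA topoisomerase, at 310.8 ± 37.9 against 59.2 ± 17.0 CPM. With the split made on cells thinned to 5000 UMIs, which left 169 cells with a *Ccdc78* UMI, the same count was 8 of 9 genes and the median log2 ratio was 0.70.

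**Figure D4:**
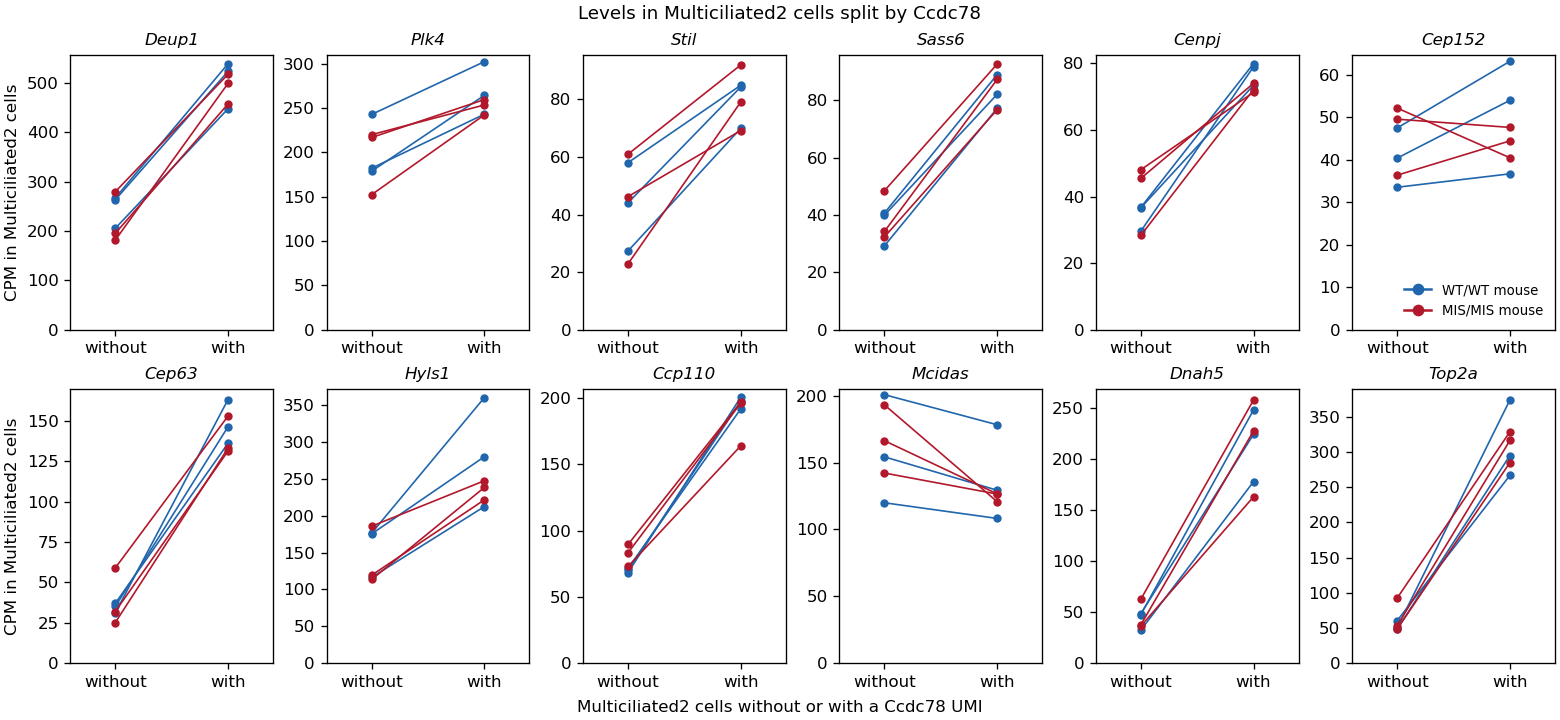
CPM (vertical axes, from 0) in Multiciliated2 cells without and with a *Ccdc78* UMI, 1 line per mouse, for the other 9 genes and for *Mcidas*, *Dnah5* and *Top2a*. The lines of 8 of the 9 genes rise in every mouse, those of *Cep152* rise in 4 of 6, and those of *Mcidas* fall in every mouse, while *Ccno* and *Myb*, not plotted, were higher with *Ccdc78* in 5 of 6.

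The question of the genotype comparison was whether the *Dnaaf5* missense allele changes the expression of these genes in cultured airway cells. No gene of the 10 passed the test between *MIS/MIS* and *WT/WT* mice in any of the 4 clusters tested. Sums per mouse were tested with limma's voom method and Benjamini-Hochberg adjustment over all genes. In Multiciliated2, 0 of the 10 genes passed an adjusted p of 0.05 (0 also at an unadjusted p under 0.05), where 0.00857% of 11674 genes passed (1 gene, and 408 at an unadjusted p under 0.05). For 0 of the 10 genes were the mice of the genotypes without overlap, where 7.77% of all genes were. The log2 differences (*MIS/MIS* minus *WT/WT*) ran from -0.10 for *Hyls1* to 0.40 for *Ccdc78*.

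*Deup1* was at 354.8 ± 39.4 CPM in *WT/WT* and 361.3 ± 53.5 CPM in *MIS/MIS* mice (SD, n = 3 each), a log2 difference of 0.02 with a 95% interval from -0.25 to 0.30. *Plk4* was at 231.4 ± 26.0 and 224.4 ± 26.1 CPM, a log2 difference of -0.06 (-0.33 to 0.22). *Ccdc78* was at 42.8 ± 9.22 and 57.8 ± 13.6 CPM, a log2 difference of 0.40 with a standard error of 0.20, an interval from -0.05 to 0.85 and an adjusted p of 0.987 by limma voom. The difference was 0.19 without MT1383 and 0.26 without *WT/WT* mouse 1. In the same cells the 6 mature multiciliated markers summed to 2216 to 2306 CPM in *WT/WT* and 2358 to 2936 CPM in *MIS/MIS* mice, without overlap. The sums of the other marker lists overlapped between genotypes there, and 7.77% of all single genes were without overlap. The part of the mature markers in the difference of *Ccdc78*, a gene higher in the mature clusters, was not tested. For the other 7 genes the log2 differences lay between -0.10 and 0.17, with a median half-width of the interval over the 10 genes of 0.35. These intervals hold for single genes and are not adjusted. With 3 mice per genotype, a difference had to be larger than their half-width to pass the test adjusted over all genes.

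In Multiciliated3, 0 of 10 genes passed (0.0229% of 13096 genes did, 3 genes), and 0 were without overlap (9.61% of all genes). In Multiciliated1, 0 of the 7 genes that passed the filter on low counts were called (0.00874% of 11446 genes, 1 gene), and 0 were without overlap (7.82%). *Stil*, *Cep152* and *Hyls1* were too low to be tested there. *Ccdc78* had log2 differences of 0.21 (interval -0.04 to 0.46) in Multiciliated3 and 0.54 (-0.03 to 1.10) in Multiciliated1, and passed in none of the 3 clusters. Single mice moved these values: in Multiciliated3 the difference was 0.13 without MT1306 and 0.32 without MT1301, and in Multiciliated1 it was 0.33 without *WT/WT* mouse 3 and 0.88 without *WT/WT* mouse 2.

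In Basal6, 0 of the 8 genes tested passed, and neither did any other gene (0% of 10981, with 467 at an unadjusted p under 0.05). *Deup1* and *Ccdc78* were below the filter. *Hyls1* was the single gene without overlap, where 9.77% of all genes were. It stood at 6.79, 5.90 and 5.57 CPM in the *WT/WT* mice and at 7.99, 9.04 and 7.15 CPM in the *MIS/MIS* mice, a log2 difference of 0.40 (-0.06 to 0.86, adjusted p of 0.998 by limma voom). The genotype difference did not differ detectably between Multiciliated2 and Basal6 for any of the 10 genes in limma's test of the interaction, nor for any other gene (0% of 12105, with the lowest adjusted p of the 10 at 0.986). At an unadjusted p under 0.05, 0 of the 10 and 550 of all genes stood in that test.

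**Figure D5:**
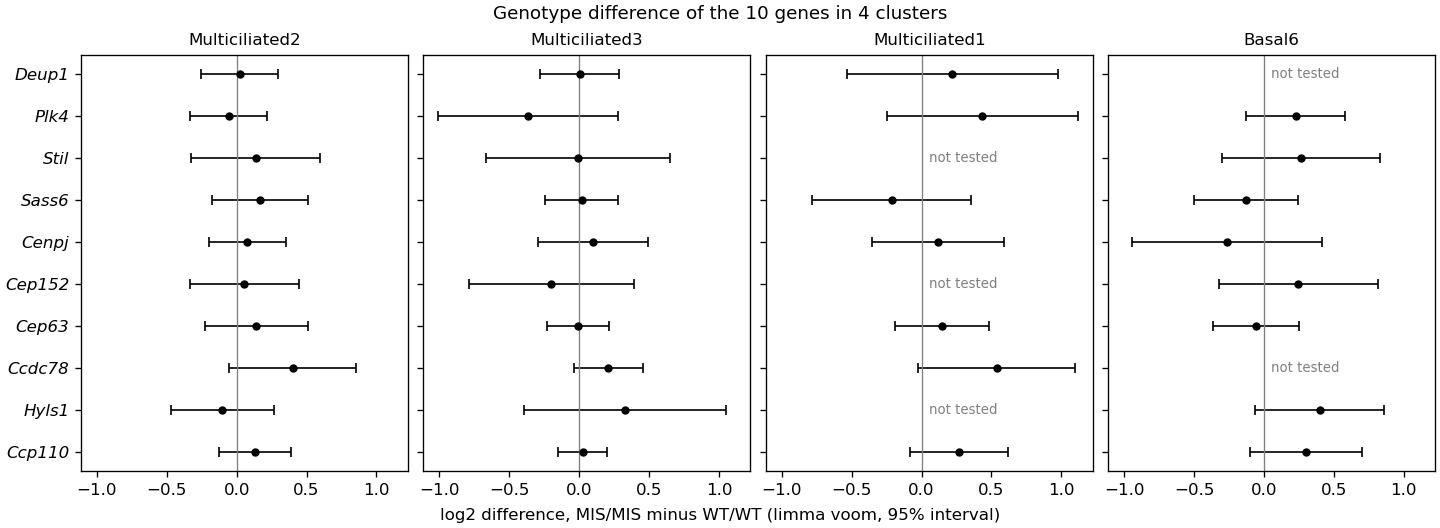
Log2 difference between *MIS/MIS* and *WT/WT* mice (horizontal axis) of each of the 10 genes in 4 clusters, from limma voom, with points at the estimate and bars for the 95% interval (3 mice per genotype). Every interval includes 0, and genes below the filter on low counts are marked as not tested.

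Of the 55 other centriole genes, 0 were called in Multiciliated2 and 0 in Multiciliated3, and of the 13 regulators 0 of the 13 and 0 of the 10 tested. Multiciliated2 made up 2.81% ± 1.20 of the cells of *WT/WT* mice and 3.53% ± 1.52 of those of *MIS/MIS* mice (SD, n = 3 each, two-sided exact permutation test, p = 0.6). The difference of 0.73 percentage points was -0.052 without MT1383. Of multiciliated cells it made up 21.8% ± 11.2 and 15.2% ± 6.44 (same exact test, p = 0.5). The smallest p that 3 mice against 3 allow is 0.1.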

How the data were processed

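Single-cell RNA-Seq (3′ v2 droplet libraries) was performed by the authors on ALI cultures from 3 *WT/WT* mice and from 3 *MIS/MIS* mice. Per the labels, reads were processed with Cell Ranger 7.1.0 on mm10, whereas the paper's methods name another version. The authors filtered cells on genes and mitochondrial share and clustered them in Seurat, and deposited raw UMI counts of every gene in each cell, beside a cell table that holds cluster, total, gene number and mitochondrial percent. The deposited files separate values by a slash and a letter t in place of a tab, so their unit was recorded as other. All counts are whole numbers (0 were not), and each cell's sum equals the authors' total. The libraries of the 3 *MIS/MIS* mice are named by an animal number absent from the sample titles and were used as replicates of the genotype, and 0 columns lacked a mouse or group. Per the labels, each library comes from 1 animal. Of all cells, 134 (0.561%) carried 1 of 67 barcodes found in more than 1 library, and 655 lay outside the stated filters (2500 to 7500 genes, at most 25% mitochondrial). No doublet caller was run, and 12.3% of Multiciliated2 cells had over 7500 genes, against 6.13% of Basal6 cells.

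Counts were summed per mouse and cluster. Mice contributed 2774228 to 11463158 UMIs in Multiciliated2 and 2208885 to 8135640 in Basal6. limma 3.58.1 in R 4.3.3 was used with voom weights, TMM factors (trims of 0.3 and 0.05) and a filter of at least 3 mice (2 with a mouse left out) with 10 counts, scaled to the median library, and 15 counts over all mice. The interaction used the mouse as a block. A negative binomial count test had been planned and was left out because of the unit recorded. The pipeline was tested on simulated data. Ratios between clusters used log2(CPM + 1) and thinning to 5000 UMIs per cell used a fixed seed (0 cells were shallower). Shares have Wilson 95% intervals. Sums, ratios and exact tests were made in Python 3.11.15 (scipy 1.17.1 and numpy 2.4.6 for values, pandas 2.3.3 for tables), and plots in matplotlib 3.10.9. Named genes were the 10 members, the 2 other centriole genes with the largest and the 2 with the smallest ratio to Basal6, the regulators, markers and the 5 genes most like *Deup1* and *Plk4*. The members and lists were chosen with earlier results of these data known. *Dnah5*, *Top2a*, *Mcidas*, *Ccno*, *Myb*, *Foxj1* and *Cdk1* in the split by *Ccdc78* were chosen after their values were seen. Alternatives were upper-quartile factors, no low-count filter, thinning, the stated filters, limma-trend (chosen after seeing the data), another pseudocount, pooled cells, other minimum cell numbers, Spearman correlation and each mouse left out.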

Additional observations from a re-analysis of the deposited data

Results flagged for a closer look

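Of 50 sets of 6 mouse values of the 10 genes (levels in 4 clusters, ratios of Multiciliated2 to Basal6), 4 had a mouse set apart from the others by Dixon's criterion, which chance meets in about 1 of 20. Both genotypes entered each set, since groups of 3 are not examined this way. *Ccdc78* in Basal6 was at 5.72 CPM in *MIS/MIS* mouse MT1383 and between 0.246 and 1.01 CPM in the others. *Cep63* in Basal6 was at 18.2 CPM in *WT/WT* mouse 3 and between 15.7 and 16.0 CPM in the others. The log2 ratio of Multiciliated2 to Basal6 was highest in MT1383 for *Sass6* (2.10, others 1.39 to 1.63) and for *Cep63* (2.77, others 2.09 to 2.34). MT1383 was also the mouse with the lowest median UMIs per cell in Multiciliated2 (33280) and in Basal6 (23985), and the part of depth in these values was not tested.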

How the results depend on the processing

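No gene of the 10 passed the test between genotypes under any alternative run in Multiciliated2, Multiciliated3, Multiciliated1, Basal6 or the interaction. With thinned cells, all 10 were again higher in Multiciliated2 than in Basal6 in every mouse. Leaving out a mouse could not lower that count. The other minimum cell numbers removed no mouse, since each had at least 55 cells in both clusters. The median log2 ratio of Multiciliated2 to Basal6, 2.92, was 2.09 with a pseudocount of 10 CPM, 3.13 with thinned cells and 2.89 to 2.99 with a mouse left out. The pseudocount lowered *Deup1* from 7.98 to 5.13 and *Ccdc78* from 4.65 to 2.39, and thinning raised *Sass6* from 1.61 to 2.21. The median share of Multiciliated2 cells with a UMI fell from 77.5% to 26.8% after thinning. Spearman correlation shared 1 of the 10 genes named as most like *Deup1* and *Plk4*. The median log2 ratio by *Ccdc78* was 0.70 when split on thinned cells and 0.94 to 1.10 with a mouse left out. Genotype differences in Multiciliated2, none of which passed, changed sign as follows: *Cenpj* to -0.022 with the stated filters, *Cep152* to -0.0017 with limma-trend, and *Cep63* to -0.034 and *Ccp110* to -0.082 with thinned cells. With a mouse left out they ran from -0.092 to 0.12 for *Deup1*, -0.14 to 0.044 for *Plk4*, -0.10 to 0.31 for *Stil*, -0.00037 to 0.19 for *Cenpj*, -0.18 to 0.20 for *Cep152*, -0.062 to 0.28 for *Cep63*, -0.31 to 0.0041 for *Hyls1*, 0.19 to 0.59 for *Ccdc78*, 0.015 to 0.30 for *Sass6* and 0.051 to 0.19 for *Ccp110*, on the log2 scale. The genotype difference in the share of Multiciliated2 cells, 0.73 percentage points, ran from -0.052 (without MT1383) to 1.47. The lowest adjusted p of the 10 genes by limma voom, 0.987 in Multiciliated2, was 0.354 without MT1301, and in Multiciliated1 it was 0.277 without *WT/WT* mouse 2. The causes were not tested. DESeq2 and edgeR were not run, because the separator led to the unit being recorded as other, although all counts are whole numbers. No paired analysis was possible between genotypes because the columns of *MIS/MIS* cells carry no replicate number that the titles share. The titles also do not state that animals of equal number were matched. Clusters, in contrast, were compared within each mouse. With 3 mice per genotype and at least 55 cells per mouse, intervals of log2 differences in Multiciliated2 had a median half-width of 0.35, and genes under 1 CPM in Basal6 rested on few UMIs.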

Other observations

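*Cenpj* had a second high cluster among the rare cells. The 28 ionocytes, salt-transporting cells, held 32 *Cenpj* UMIs (46.1 CPM), and 14 of the 28 had a UMI. The level was 39.7 CPM in the 19 cells of *MIS/MIS* mouse MT1383, 69.8 CPM in the 7 cells of *WT/WT* mouse 3 and 25.3 CPM in the 2 cells of *WT/WT* mouse 1. With a single mouse above 10 cells, no spread between mice can be given.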
